A study of Mus musculus with 10 samples.

Results

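ZBTB38 WT and ZBTB38 HET germinal center B cells were compared by RNA-seq, with 2 libraries of each genotype out of 10 libraries in all. They were chosen by genotype label and not by any measured value. ZBTB38 WT mice carried Zbtb38fl/fl and no Cre. ZBTB38 HET mice carried 1 floxed and 1 intact allele with Cre (Zbtb38fl/+ x Vav-Cre), and the other 6 libraries came from ZBTB38 KO mice (Zbtb38fl/fl x Vav-Cre). The strain label of every library is C57Bl6/N, and the floxed allele goes back to a single founder made in C57Bl6/J zygotes. Vav-Cre is driven by the promoter of Vav1 and is active in all blood lineages, so cells other than B cells in HET mice also carried Cre. The study sorted GL7+IgD- B cells that bound the hapten NP, 2 weeks after immunization with NP-OVA. The HET group differs from the WT group in the deleted allele, in the presence of Cre and in the unfloxed allele, and these cannot be told apart here. Both groups also differ in the level of Y-linked transcripts, given below. The question was how far the loss of 1 Zbtb38 allele, with Cre present, goes along with a changed transcriptome.

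ZBTB38, also called CIBZ, is a transcription factor with a BTB domain and zinc fingers (a BTB-ZF protein) that binds methylated CpG sites, where it recruits corepressors or activators. Germinal centers are sites in lymphoid tissue where antigen-activated B cells divide, mutate their receptors and are selected with the help of T follicular helper cells. Dark zone cells divide and mutate, light zone cells are tested for antigen binding, and macrophages clear the B cells that die.

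The 4 libraries held between 27462439 and 41059082 estimated counts. A gene with a count of 0 in such a library may still have had up to 3 counts, which covers counting error only. Gene levels below are CPM, which are counts relative to the library total after TMM scaling, and transcripts of different length are compared in TPM, which also divides by length. The libraries of one genotype were closer to each other than to those of the other genotype. Over 14354 genes the SD of the log2 difference was 0.438 between the WT libraries and 0.445 between the HET libraries, against 0.529 to 0.607 across genotypes. More than 2-fold apart were 579 and 645 genes within a genotype and 935 to 1303 genes across. Every pair differed beyond counting noise, with a chi-square per gene of at least 25.7, so no library was a copy of another.

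Both HET libraries listed more low genes at 0 than both WT libraries did. Among genes whose level elsewhere was 1 to 5 CPM, 0.679% and 1.42% were at 0 in WT, 5.94% and 3.10% in HET, and 0.631% to 8.58% in the KO libraries. At least 1 count was found for 15442 and 15331 genes in WT and for 14477 and 14796 genes in HET. The detection of low genes thus moved with genotype in these 4 libraries, and its part in the results on low genes was not tested. Y-linked genes were the other difference of this kind. Their summed level over 4 genes was 210 and 279 CPM in WT, 2.68 and 1.99 CPM in HET, 208 to 257 CPM in 3 KO libraries and 4.17 to 6.94 CPM in the other 3. The labels give no sex, and among the WT and HET libraries alone genotype and the Y-linked level cannot be told apart. A fit with that level as a covariate draws on the KO libraries, which hold both levels, and assumes the same effect in all genotypes.

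**Figure D1:**
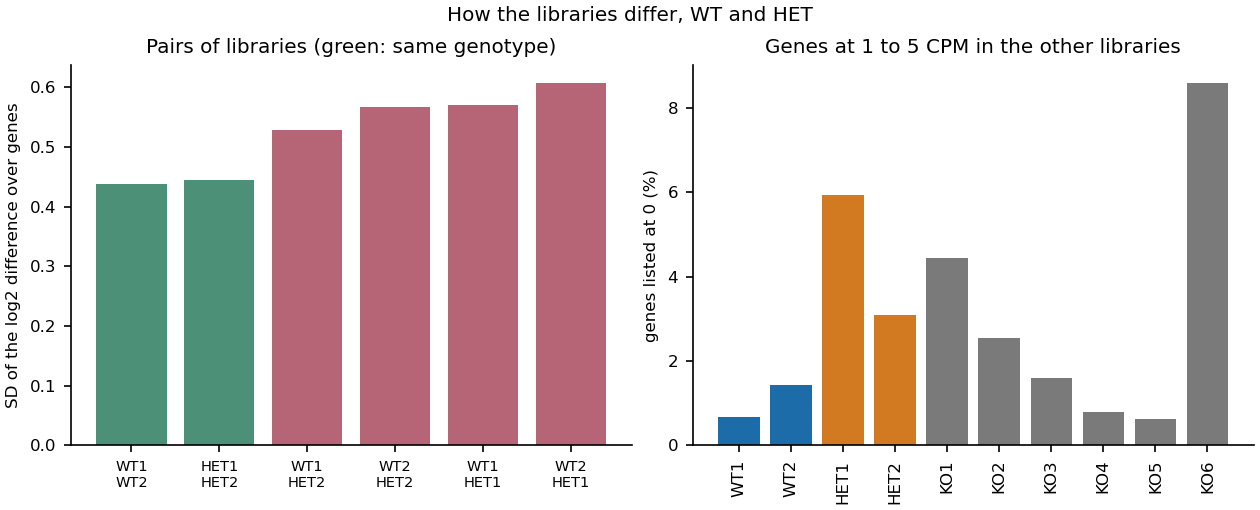
Left, the SD over genes of the log2 difference between 2 libraries, for each pair of WT and HET libraries (green, same genotype; red, different genotypes). Right, the percent of genes listed at 0 in each library among genes whose level elsewhere was 1 to 5 CPM; pairs of one genotype lie at 0.438 and 0.445, pairs across genotypes at 0.529 or more, and both HET libraries list more genes at 0 than both WT libraries.

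Zbtb38 itself was the gene the alleles differ in. Its locus is chr9:96682770-96752831 (GRCm38, minus strand), and its whole protein of 1197 residues is encoded between 96685439 and 96689029, in the exon that was floxed. The first codons of the coding sequence removed by Cre are shown from the Gencode transcript sequence, with the start codon in capitals, to mark what a HET cell can still transcribe from only 1 allele.

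Zbtb38 coding start, GRCm38, chr9:96688940-96689029, minus strand: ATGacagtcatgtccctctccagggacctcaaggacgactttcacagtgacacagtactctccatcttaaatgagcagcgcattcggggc

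Zbtb38 stood at 162 and 152 CPM in WT, at 117 and 106 CPM in HET, and between 18.6 and 50.3 CPM in the KO libraries (median 30.3). Both WT libraries were above both HET libraries, and every KO library was below both. The HET level was 71.2% of the WT level. In the fit of all 10 libraries the log2 difference of 0.49 (standard error 0.345, edgeR adjusted p = 0.873) did not pass the threshold of 0.1. Its 95% interval ran from 42.2% to 120% of the WT level, so it reached past the WT level itself. With only the 4 WT and HET libraries the difference was 0.50 (standard error 0.115, edgeR adjusted p = 0.0877). The interval of that fit ran from 58.7% to 85.1% of the WT level.

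The transcript models of Zbtb38 did not share this difference equally. ENSMUST00000126066.7 stood at 15.1 and 18.5 TPM in WT and at 3.37 and 7.67 TPM in HET, 32.9% of the WT level. ENSMUST00000152594.7, which is 7406 bases long and holds the whole coding sequence, stood at 20.7 and 18.0 TPM in WT and at 15.5 and 12.2 TPM in HET, 71.5% of the WT level. For both of these models the HET libraries were below the WT libraries. In the KO libraries the first had 0.133 to 0.656 TPM and the second 0.698 to 4.34 TPM. ENSMUST00000140121.7 stood at 7.04 and 7.86 TPM in WT and at 9.05 and 8.90 TPM in HET. ENSMUST00000128269.7, the shortest at 929 bases, stood at 20.7 and 18.9 TPM in WT and at 21.8 and 20.8 TPM in HET. HET was thus at 120% and 108% of WT for these models. In the KO libraries ENSMUST00000140121.7 had 2.48 to 5.55 TPM, and the shortest model still had 14.2 to 35.6 TPM. The study's aligned reads showed complete loss of transcripts within the floxed exon in KO mice and intermediate levels in HET mice. ENSMUST00000093798.8 was at 0 in every library. The models share exons, so Salmon had to divide reads among them, and no test was run on single models.

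**Figure D2:**
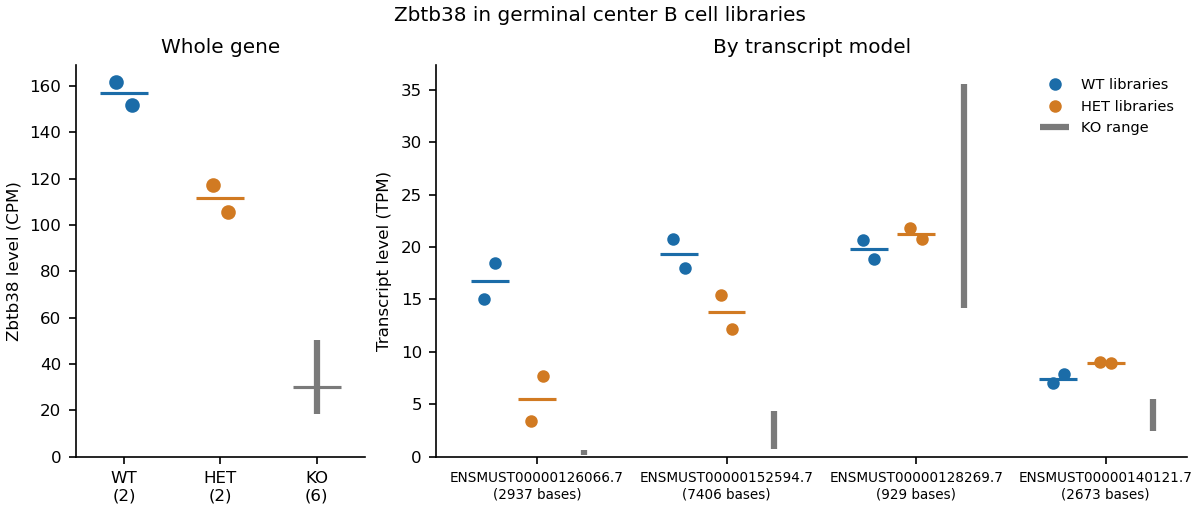
Zbtb38 in CPM (left, whole gene) and in TPM by transcript model (right); points are the 2 WT and 2 HET libraries with their mean, and the grey bar spans the 6 KO libraries. WT at 162 and 152 CPM lies above HET at 117 and 106 CPM, and the difference is carried by the first and second models, of 2937 and 7406 bases.

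Across the transcriptome, 1 gene of 14354 passed an adjusted p of 0.1 in the fit of all 10 libraries. This gene, higher in WT, makes up 0.00697% of the genes tested, and no gene lower in WT passed. At an unadjusted p under 0.05 there were 572 genes higher in WT (3.98%) and 350 lower (2.44%). With library size alone in place of TMM this split was 711 to 172, and the median log2 difference over all genes was 0.10 in place of 0.01. Both WT libraries lay above both HET libraries for 3522 genes (24.5%), and the reverse held for 3372 genes (23.5%). A typical gene had a standard error of 0.378 on the log2 scale, which gives a 95% interval of about 0.827 to either side.

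The number of genes that passed differed with the libraries in the fit and with the test. With only the 4 WT and HET libraries, 523 of 13220 genes passed, 342 higher in WT (2.59%) and 181 lower (1.37%). The 10-library fit shares 1 estimate of spread with the KO libraries, whose pooled SD of log2(CPM + 1) was 0.462, against 0.309 for WT and 0.315 for HET. edgeR's common biological coefficient of variation was 0.480 with all 10 libraries and 0.289 with 4. DESeq2 on all 10 libraries called 123 genes, 91 higher in WT and 32 lower. Of the 342 genes higher in WT with 4 libraries, 271 had an unadjusted p under 0.05 in the 10-library fit, as did 118 of the 181 lower genes. The fit of 4 libraries rests on 2 residual degrees of freedom. Its 523 genes include the Y-linked Ddx3y, Eif2s3y, Kdm5d and Uty and the X-linked Ddx3x, Eif2s3x, Kdm5c and Kdm6a.

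The genes of both directions were of different kinds. The 342 genes higher in WT had a median change of 2.09 on the log2 scale at a median level of 11.4 CPM, and 284 of them differed more than 2-fold. The 181 genes lower in WT had a median change of 0.61 at a median level of 137 CPM, and 27 of them differed more than 2-fold. Under 10 CPM on average were 160 of the 342 and 15 of the 181. The median of the KO libraries lay between the WT and HET means for 317 of the 342 and for 119 of the 181, and below both for 61 of the 181. These genes were picked for a wide gap between WT and HET, which favours a KO median between them. That share over all genes was not computed.

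**Figure D3:**
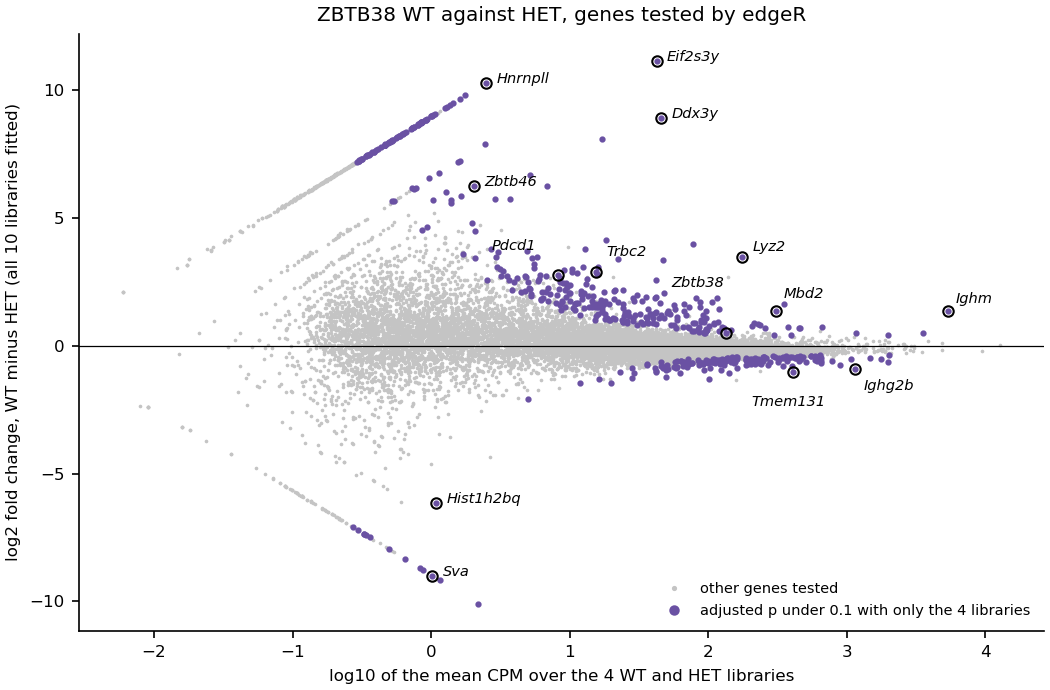
Each point is a gene tested; the x axis gives the log10 of the mean CPM over the 4 WT and HET libraries and the y axis the log2 fold change (WT minus HET) from the fit of all 10 libraries. Purple marks the 523 genes with adjusted p under 0.1 when only 4 libraries were fitted, with larger differences at lower levels above 0 than below; the diagonal edges are genes at or near 0 in one genotype, whose fitted fold depends on edgeR's prior count.

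Hnrnpll, an RNA-binding regulator of splicing known for CD45 exons in T cells and plasma cells, was the gene that passed. Its locus is chr17:80029487-80062334 (GRCm38, minus strand). Its counts were 202 and 149 in WT (4.85 and 5.15 CPM) and 0 and 0 in HET (edgeR adjusted p = 0.0395). With the floor of 3 counts per library, WT was at least 49.0-fold higher than HET. All 6 KO libraries had Hnrnpll, between 1.82 and 4.99 CPM. It passed with 4 libraries (edgeR adjusted p = 0.0260) and in DESeq2 (adjusted p = 6.41e-06). Its fitted log2 difference, which depends on edgeR's prior count, stayed between 10.25 and 10.30 whichever library was left out. It missed the threshold without any single WT or HET library (edgeR adjusted p 0.156 to 0.622), where the lone library left in its group is assumed to vary like the other groups. It also missed without KO library 2, 3 or 4 (edgeR adjusted p 0.127 to 0.139). Ptprc, which encodes CD45, stood at 1070 and 994 CPM in WT and 1147 and 1128 CPM in HET (log2 difference -0.14, standard error 0.141, edgeR adjusted p = 0.958). That level sums all transcripts of Ptprc and does not show exon use, which was not tested.

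Sva had the reverse pattern. Sva, a gene for a secreted protein of the seminal vesicle, is at chr6:42038394-42042851 (GRCm38, plus strand). It had 0 and 0 counts in WT and 87 and 36 counts in HET (2.77 and 1.30 CPM), at least 23.2-fold more with the floor of 3 counts (edgeR adjusted p = 0.15). The KO libraries held 1.47 to 5.10 CPM. All HET counts fell on the model ENSMUST00000117406.7, while 4 KO libraries had counts on ENSMUST00000024059.4, so the sum mixes models.

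Genes such as these were not even between the genotypes. At 0 in both HET libraries and at 1 CPM or more in both WT libraries were 30 genes, among them Hnrnpll and Ccl5, a chemokine of T and NK cells. At 0 in both WT libraries and at 1 CPM or more in both HET libraries were 6 genes, namely Sva, Gm10273, Gm1141, Lct, Rsc1a1 and Ptpru. Of the 30 genes, 11 were found in all 6 KO libraries and none was missing from all of them. These genes and the count of 6 were chosen after their values were seen. This imbalance ran the same way as the shares of low genes at 0 given above.

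The other genes higher in WT that the rule names did not pass the adjusted threshold in edgeR with 10 libraries, where their adjusted p lay between 0.288 and 0.477. All of them passed in DESeq2 with the same 10 libraries (adjusted p 3.28e-06 to 0.00883) and in edgeR with 4. They were picked from genes whose WT and HET libraries do not overlap. Pdcd1, the inhibitory receptor PD-1 of T follicular helper cells, stood at 11.8 and 16.97 CPM in WT and 1.53 and 2.68 CPM in HET. Trbc2, a constant segment of the T cell receptor beta chain, stood at 23.8 and 30.7 CPM in WT and 3.28 and 4.20 CPM in HET. Trbc1, its near-identical neighbour with which it can share reads, stood at 18.4 and 18.6 CPM in WT and 2.01 and 2.64 CPM in HET. For these T cell transcripts WT was 6.84-fold (Pdcd1), 7.28-fold (Trbc2) and 7.94-fold (Trbc1) above HET. Tlr7, a sensor of single-stranded RNA, stood at 14.2 and 16.3 CPM in WT and 2.90 and 3.76 CPM in HET. Cirbp, a cold-inducible RNA-binding protein, stood at 59.7 and 90.5 CPM in WT and 36.4 and 26.7 CPM in HET. Fam105a stood at 13.999 and 18.5 CPM in WT and 1.18 and 3.00 CPM in HET. In these, each KO median lay between the WT and HET means, which the way they were picked favours. S100a6, a calcium-binding protein, stood at 8.98 and 7.64 CPM in WT and 0.829 and 1.70 CPM in HET. Gpm6b, a membrane glycoprotein best known from neurons, had 138 and 84 counts in WT against 0 and 1 in HET. Agbl1, a cytosolic carboxypeptidase, had 119 and 139 counts in WT against 5 and 3 in HET. Their changes thus rest on few HET counts. Igkv3-5 and Igkv2-137, variable segments of the kappa light chain whose reads can be shared within the family, were 2.97-fold and 4.56-fold higher in WT. Without the sixth KO library, 16 genes passed, among them Hnrnpll, Fam105a, Pdcd1, Trbc1, Trbc2, Tlr7, Gpm6b, Igkv2-137 and Sva.

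Of the 12 named genes lower in WT, 8 had 56.3 CPM or more in every WT and HET library and differed by less than 1 on the log2 scale. None passed in edgeR with 10 libraries, where those other than Sva had adjusted p between 0.477 and 0.709. All 12 passed in DESeq2 with the same libraries (adjusted p 3.02e-04 to 0.0449) and in edgeR with 4. Here too, non-overlapping groups were a condition of the choice. Tmem131 stood at 289 and 249 CPM in WT, 544 and 568 CPM in HET and 175 to 365 CPM in KO, so that both HET libraries were above all other libraries. Lpin2, a phosphatidate phosphatase of lipid synthesis, stood at 151 and 144 CPM in WT, 235 and 249 CPM in HET and 128 to 169 CPM in KO. Ube2h, a ubiquitin-conjugating enzyme, stood at 191 and 193 CPM in WT, 274 and 314 CPM in HET and 169.6 to 212 CPM in KO. In all 3 genes the KO libraries lay nearer WT than HET. Slc38a2, a transporter of neutral amino acids, was 1.65-fold higher in HET, with 168 and 139 CPM in WT and 247 and 261 CPM in HET. Epn2, an adaptor of endocytosis, was 2.38-fold higher in HET, with 16.6 and 16.97 CPM in WT and 46.2 and 33.6 CPM in HET. Hmmr, a spindle protein and dark zone gene, was at 129 and 108 CPM in WT and 167 and 190 CPM in HET. Rfwd3, a ubiquitin ligase of DNA crosslink repair, was at 200 and 159 CPM in WT and 264 and 310 CPM in HET. Each KO median of these genes lay between the WT and HET means, which the way they were picked favours. Lin7c, a scaffold protein, Cyb5b, a cytochrome b5 of the outer mitochondrial membrane, and Tmem64 had log2 differences of -0.69, -0.52 and -0.57. Hist1h2bq, a histone H2B gene nearly identical to its relatives and therefore uncertain, had 2 and 0 counts in WT and 53 and 72 counts in HET.

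Transcripts of T cells were higher in WT over nearly the whole list. Of 22 T cell genes, 21 had both WT libraries above both HET libraries, 14 had an unadjusted p under 0.05 in that direction, none in the other, and none passed the adjusted threshold. Over all genes these shares were 24.5% and 3.98%. With 4 libraries 11 of 22 passed, against 2.59% of all genes. Their median log2 difference was 2.45, against 0.01 over all genes. Tcf7, the transcription factor TCF1, stood at 34.0 and 47.5 CPM in WT and 4.56 and 3.29 CPM in HET. Cd3e, a chain of the T cell receptor complex, stood at 18.0 and 13.7 CPM in WT and 1.59 and 4.20 CPM in HET. Cd6, a T cell surface receptor, stood at 19.1 and 25.3 CPM in WT and 2.52 and 2.79 CPM in HET. The exception was Lck, a kinase of T cells that was abundant in all libraries, at 160 and 168 CPM in WT and 171 and 165 CPM in HET. Summed over the list the level was 522 and 567 CPM in WT, 270 and 288 CPM in HET and 320 to 489 CPM in KO, and no listed gene was at 0 in a WT or HET library. Ms4a1, which encodes the B cell marker CD20, stood at 2335 and 2419.6 CPM in WT and 2416 and 2238 CPM in HET. In such bulk samples, fewer cells of a type and less RNA per cell cannot be told apart.

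T follicular helper genes were mixed. Pdcd1, Icos (a costimulatory receptor) and Cd40lg (the ligand of CD40) were the 3 of 11 tested with an unadjusted p under 0.05, all higher in WT. That share over all genes was 3.98%. Icos stood at 5.81 and 9.68 CPM in WT and 2.01 and 1.52 CPM in HET. Cxcr5, a homing receptor that germinal center B cells carry as well, stood at 249.7 and 236 CPM in WT and 299 and 247 CPM in HET. Btla, an inhibitory receptor also found on B cells, stood at 207 and 216 CPM in WT and 277 and 265 CPM in HET. The list median was 1.09, with 7 genes apart in favour of WT and 2 in favour of HET, against 24.5% and 23.5% of all genes. Of 9 NK cell genes, 6 were tested and 2 had an unadjusted p under 0.05 (Klrd1 and Gzmb), against 3.98% of all genes. Each of these 2 was found in 1 WT library alone.

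Macrophage transcripts followed the T cell transcripts. Of 14 genes, 13 had both WT libraries above both HET libraries, 8 had an unadjusted p under 0.05 and 9 passed with 4 libraries, all higher in WT, with a median of 2.02. The same shares over all genes were 24.5%, 3.98% and 2.59%, and the median was 3.38 with the Y-linked level as a covariate. Lyz2, the lysozyme of myeloid cells, stood at 345 and 298 CPM in WT and 35.7 and 22.7 CPM in HET, an 11.01-fold difference (edgeR adjusted p = 0.716 with 10 libraries and 0.00214 with 4). C1qb, a chain of complement C1q made by macrophages, stood at 62.1 and 35.5 CPM in WT and 8.70 and 16.1 CPM in HET. Itgam, the integrin CD11b, stood at 30.9 and 26.3 CPM in WT and 5.13 and 1.66 CPM in HET. Vcam1, an adhesion molecule also found on stroma, overlapped, at 46.4 and 22.018 CPM in WT and 29.5 and 39.6 CPM in HET. The list summed to 702 and 535 CPM in WT, 130 and 152 CPM in HET and 104 to 881 CPM in KO, so that the KO libraries alone spanned both groups. Timd4 was at 0 in the first HET library and all other listed genes were found in each WT and HET library.

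Markers of other cell types were few and low, apart from some globin genes and Pecam1. Of 8 neutrophil genes 5 were tested and none had an unadjusted p under 0.05, and Ngp, a granule protein, was found only in the first WT and second HET libraries among the 4, at 1.25 and 3.37 CPM. The globin genes Hba-a1, Hba-a2 and Hbb-bs, which can share reads with their copies, had WT above HET, with Hba-a2 at 3.10 and 6.29 CPM in WT and 0.861 and 0.760 CPM in HET. They were the 3 of 7 erythroid genes tested with an unadjusted p under 0.05, against 3.98% of all genes, and 2 of 7 passed in DESeq2. Hbb-bt was at 33.5 to 35.4 CPM in all 4 libraries. The erythroid median was 0.02 over members of both signs, and it was 2.35 with only 4 libraries and 1.30 with the filter of 10 counts. None of 3 platelet genes tested had an unadjusted p under 0.05. All 3 stromal and endothelial genes tested had a higher mean in WT, with a median of 1.56 (0.67 to 5.80 with a HET library left out). Pecam1, an endothelial adhesion molecule also found on blood cells, had an unadjusted p under 0.05, at 101 and 114 CPM in WT and 61.9 and 67.6 CPM in HET, and Col1a2 and Col3a1, which mark fibroblasts, were at 0 in the 4 libraries.

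**Figure D4:**
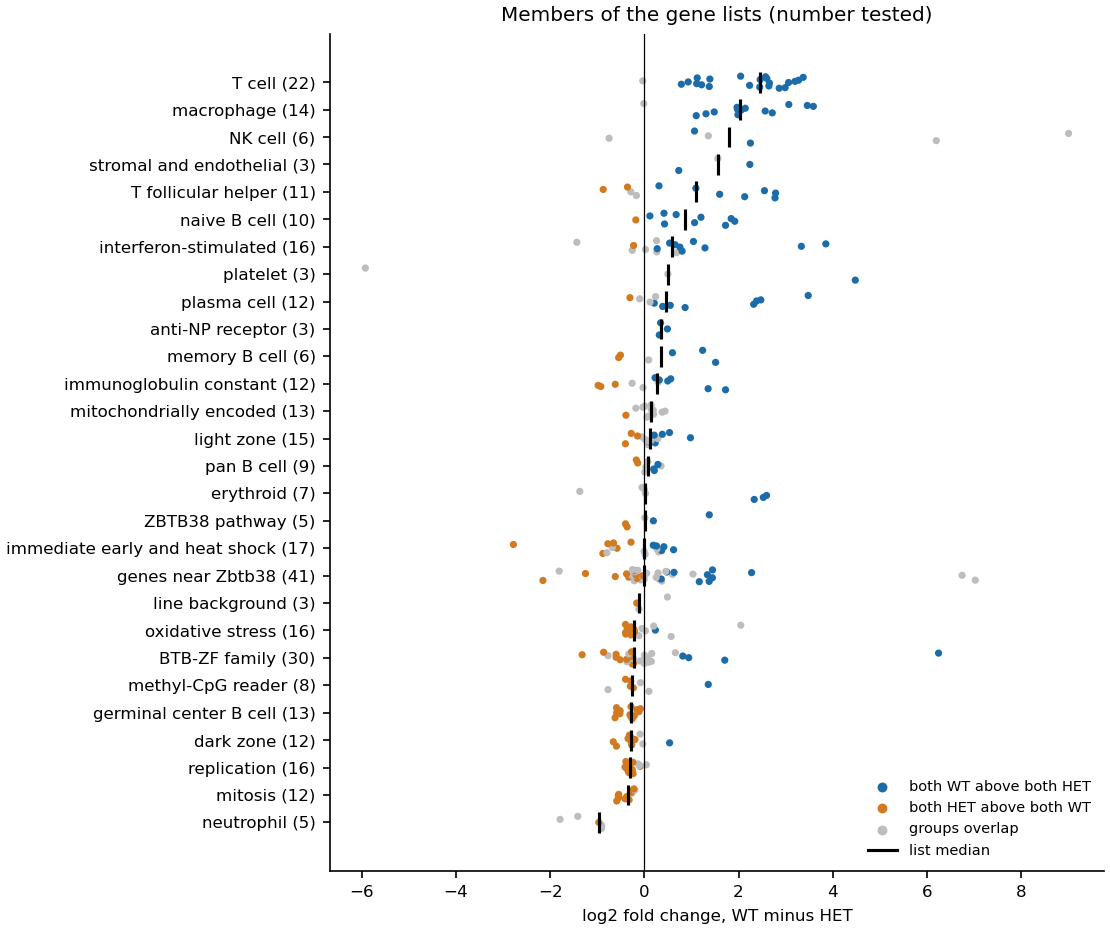
Log2 fold change (WT minus HET) of each tested member of the gene lists, 1 row per list with the number tested; blue marks members with both WT libraries above both HET libraries, orange the reverse, grey overlap, and the black bar the list median. T cell and macrophage members lie to the right with medians of 2.45 and 2.02, and the germinal center B cell, replication and mitosis lists lie slightly to the left.

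B cell identity genes were level while germinal center genes leaned to HET. The 9 pan B cell genes had a median of 0.08 and none had an unadjusted p under 0.05. Of 13 germinal center B cell genes all 13 had both HET libraries above both WT libraries, against 23.5% of all genes, with a median of -0.28 (-0.69 with the Y-linked level as a covariate). Only Pou2af1, a coactivator required for germinal centers, had an unadjusted p under 0.05 (0.0120 by edgeR), at 1581 and 1355 CPM in WT and 2091 and 2101 CPM in HET. With 4 libraries 5 of the 13 passed, Gcsam, Rgs13, Pou2af1 and Efnb1 among them. Over all genes, 2.44% had an unadjusted p under 0.05 in this direction and 1.37% passed with 4 libraries. Efnb1, the ligand ephrin-B1, stood at 84.4 and 73.7 CPM in WT and 114 and 124 CPM in HET. Rgs13, a regulator of chemokine receptor signalling, stood at 311 and 281 CPM in WT and 448 and 443 CPM in HET. Bcl6, the BTB-ZF factor that germinal centers depend on, stood at 232 and 247 CPM in WT and 278 and 294 CPM in HET (log2 difference -0.26, standard error 0.228, edgeR adjusted p = 0.935). The summed level was 6294 and 5700 CPM in WT, 7706 and 7648 CPM in HET and 5029 to 7437 CPM in KO.

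Dark zone genes leaned the same way and light zone genes did not. Of 12 dark zone genes, 9 had HET above WT, against 23.5% of all genes, with a median of -0.29 (-0.16 without WT library 2). Polh and Hmmr had an unadjusted p under 0.05 and passed with 4 libraries, against 2.44% and 1.37% of all genes. Polh, the error-prone polymerase eta that takes part in somatic hypermutation, stood at 75.9 and 63.4 CPM in WT and 105 and 115 CPM in HET. Foxp1 went the other way, at 197 and 258 CPM in WT and 138 and 175 CPM in HET. The 15 light zone genes had a median of 0.11. Cd86, which served the study as a light zone marker, was at 172 and 149 CPM in WT and 229 and 196 CPM in HET, while Il4i1, an amino acid oxidase, was at 185 and 224 CPM in WT and 151 and 164 CPM in HET. Myc stood at 70.3 and 62.7 CPM in WT and 57.5 and 62.8 CPM in HET.

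Genes of cell division leaned to HET as well. Of 12 mitosis genes all had a lower mean in WT, 10 had both HET libraries above both WT libraries, and 4 had an unadjusted p under 0.05 (Top2a, Bub1, Kif11 and Cenpe). Over all genes these shares were 23.5% and 2.44%. The median was -0.35, and -0.20 without WT library 2. Top2a, topoisomerase II alpha, stood at 584 and 462 CPM in WT and 804 and 766 CPM in HET, and it alone passed with 4 libraries. Of 16 replication genes, 13 had HET above WT, with a median of -0.30 (-0.50 with the Y-linked level as a covariate), yet none had an unadjusted p under 0.05 and none passed with 4 libraries. Mcm10, a replication initiation factor that ZBTB38 is known to repress, stood at 79.1 and 79.5 CPM in WT and 95.9 and 109 CPM in HET (log2 difference -0.37, standard error 0.264, edgeR adjusted p = 0.886). Summed over each list, both HET libraries lay above both WT libraries, with mitosis at 3195 and 2529 CPM in WT and 3721 and 3862 CPM in HET, and 2873 to 3674 CPM in KO. The replication sum was 4538 and 3996 CPM in WT, 5112.5 and 5336 CPM in HET and 3580 to 5323 CPM in KO.

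Genes of naive B cells and IgM were higher in WT. Of 10 naive B cell genes, 9 had both WT libraries above both HET libraries, 3 had an unadjusted p under 0.05 and 7 passed with 4 libraries. Over all genes these shares were 24.5%, 3.98% and 2.59%. The median was 0.87, and 1.63 with the Y-linked level as a covariate. Klf2, a factor of resting and recirculating lymphocytes, stood at 119 and 137 CPM in WT and 32.6 and 38.7 CPM in HET. Ccr7, a homing receptor, stood at 43.7 and 69.4 CPM in WT and 14.9 and 15.019 CPM in HET. Klf2, Ccr7 and S1pr1 are also transcripts of T cells, whose markers were higher in the same libraries. Ighd, the constant segment of IgD, stood at 135 and 189.6 CPM in WT and 48.0 and 50.4 CPM in HET, although the sort took IgD- cells. Cr2, complement receptor 2, was the exception, at 361 and 326 CPM in WT and 414 and 365 CPM in HET. The KO libraries, with a sum of 1530 to 3037 CPM, spanned the WT sums of 2222 and 2292 CPM and reached the HET sums of 1585 and 1617 CPM.

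**Figure D5:**
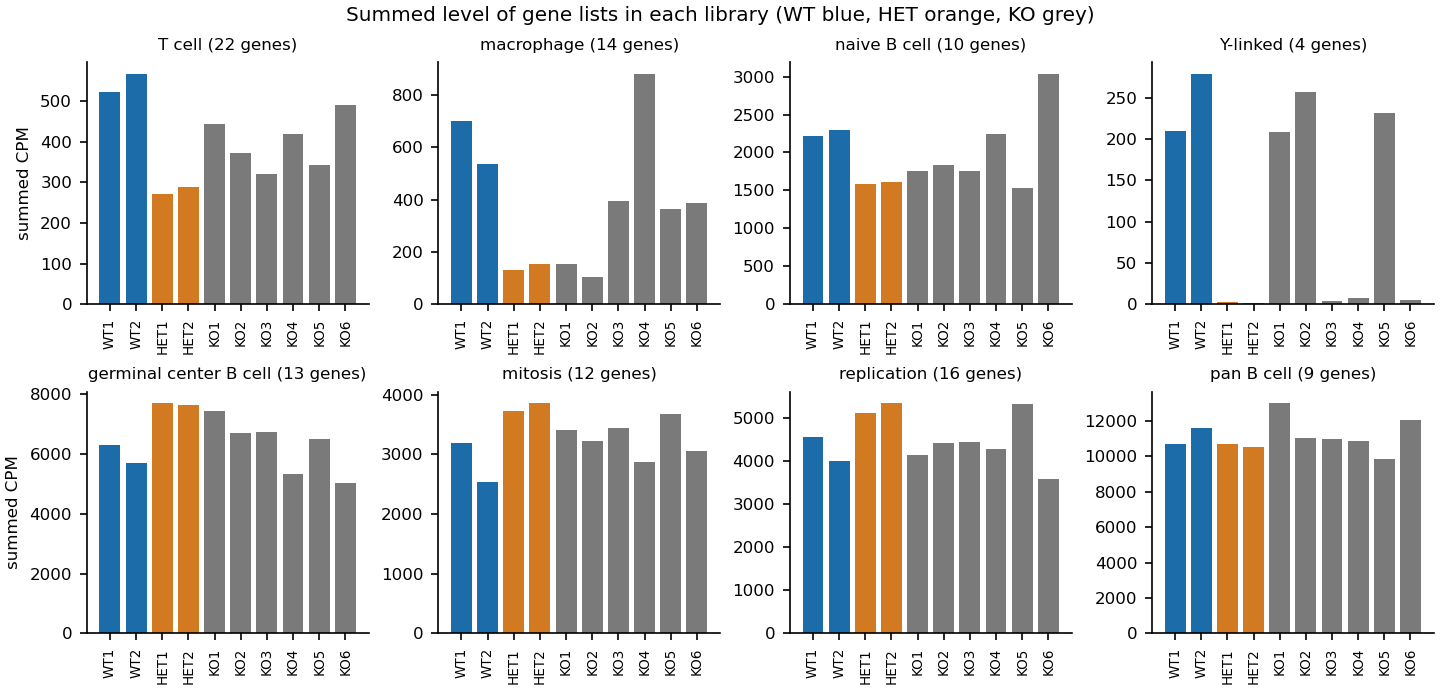
Summed CPM of 8 gene lists in each of the 10 libraries (blue, WT; orange, HET; grey, KO; all axes start at 0). T cell, macrophage, naive B cell and Y-linked sums were higher in both WT libraries than in both HET libraries, and germinal center, mitosis and replication sums were lower. The KO libraries ranged across both levels for the macrophage, naive B cell, replication and Y-linked lists.

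The isotypes differed in opposite directions. Ighm, the constant segment of IgM, stood at 7542 and 7854 CPM in WT, 2769 and 3254 CPM in HET and 3849 to 11775 CPM in KO, which is 2.56-fold higher in WT than in HET (edgeR adjusted p = 0.709 with 10 libraries and 0.00249 with 4). Ighg2b, an IgG constant segment, stood at 829 and 764 CPM in WT and 1603 and 1424 CPM in HET, 1.90-fold higher in HET (edgeR adjusted p = 0.736 with 10 libraries and 0.0111 with 4). Ighg1, the main isotype of the response to this antigen form, stood at 3238 and 2842 CPM in WT and 2922 and 3279 CPM in HET and overlapped. Constant segments can share reads, and Ighm and Ighd can arise from one transcript. Of the genes of the typical NP receptor, Ighv1-72 stood at 352 and 287 CPM in WT and 198 and 256 CPM in HET, and Iglv1 at 1325 and 1197 CPM in WT and 839 and 1146 CPM in HET. All 3 genes of that list had WT above HET, against 24.5% of all genes, and none had an unadjusted p under 0.05.

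Plasma cell genes leaned to WT and memory B cell genes were mixed. Of 12 plasma cell genes, 8 had both WT libraries above both HET libraries and 1 the reverse, against 24.5% and 23.5% of all genes. An unadjusted p under 0.05 was reached by 3, all higher in WT, against 3.98% of all genes. The median was 0.47 (0.23 without HET library 2 and 0.81 with the Y-linked level as a covariate). Sdc1, which encodes the plasma cell marker CD138, stood at 15.1 and 16.0 CPM in WT and 4.97 and 1.23 CPM in HET. Fkbp11, a folding enzyme of secretory cells, stood at 5.07 and 5.81 CPM in WT and 0.637 and 0.326 CPM in HET, and Creb3l2, a factor of secretory capacity, at 18.8 and 9.92 CPM in WT and 3.57 and 1.59 CPM in HET. Prdm1, the factor BLIMP1, stood at 12.5 and 13.9 CPM in WT and 12.048 and 2.39 CPM in HET, so that the HET libraries themselves lay 1 near WT and 1 far below. Of 6 memory B cell genes, 3 had WT above HET and 2 the reverse, against 24.5% and 23.5% of all genes. The memory B cell median was 0.34 (0.18 without WT library 1). Ccr6 and Hhex had an unadjusted p under 0.05, both higher in WT, against 3.98% of all genes. Ccr6 stood at 24.9 and 26.2 CPM in WT and 9.31 and 8.61 CPM in HET.

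Other BTB-ZF genes and readers of methylated DNA leaned slightly to HET, with few calls. Of 30 BTB-ZF genes other than Zbtb38, Bcl6 among them, 1 was higher in WT and 2 were lower at an unadjusted p under 0.05. Over all genes these shares were 3.98% and 2.44%. The median was -0.23 (-0.15 without WT library 2 and -0.14 with library size alone). Both HET libraries were above both WT libraries for 12 of the 30, and the reverse held for 4, against 23.5% and 24.5% of all genes. Their summed level was 1147 and 1146 CPM in WT, 1464 and 1350.1 CPM in HET and 927 to 1490 CPM in KO. Zbtb46, a factor of classical dendritic cells, had 232 and 73 counts in WT against 3 and 0 in HET. Zbtb40 stood at 10.2 and 8.43 CPM in WT, 23.6 and 22.9 CPM in HET and 3.03 to 11.2 CPM in KO, so that HET lay above all the others (log2 difference -1.32, standard error 0.489, edgeR adjusted p = 0.713 with 10 libraries and 0.0595 with 4). Zbtb11 was at 54.2 and 49.5 CPM in WT and 83.9 and 64.3 CPM in HET. Zbtb4, a close relative that also binds methylated CpG, overlapped, at 16.3 and 20.3 CPM in WT and 13.6 and 20.7 CPM in HET. Zbtb20, which acts in plasma cells, stood at 204 and 224 CPM in WT and 376 and 272 CPM in HET. Zbtb32, which restrains memory B cell responses, stood at 17.8 and 21.4 CPM in WT and 9.91 and 12.3 CPM in HET. The 8 methyl-CpG readers had a median of -0.26 (-0.06 without HET library 2). Without overlap, 4 were higher in HET and 1 was higher in WT, against 23.5% and 24.5% of all genes. Mbd2, part of a nucleosome remodeling complex, was that 1 gene, at 493 and 389.7 CPM in WT, 137 and 207 CPM in HET and 149 to 526 CPM in KO, 2.56-fold higher in WT (edgeR adjusted p = 0.709 with 10 libraries and 0.0329 with 4).

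Partners of ZBTB38 and the processes it has been tied to showed no call. Rbbp6, a ubiquitin ligase that targets ZBTB38, stood at 95.6 and 94.5 CPM in WT and 78.0 and 88.5 CPM in HET. Usp9x, a deubiquitinase that stabilizes it, stood at 82.4 and 56.4 CPM in WT and 94.4 and 88.9 CPM in HET. The corepressor gene Ctbp1 overlapped, at 353 and 343 CPM in WT and 309.6 and 381 CPM in HET, and the 5 genes of this list had a median of 0.01. Of 16 oxidative stress genes only Cat, which encodes catalase, had an unadjusted p under 0.05. It was lower in WT, as were 2.44% of all genes at that p. Cat stood at 325 and 321 CPM in WT and 445 and 384 CPM in HET. The median was -0.22 (-0.13 to -0.33 over the settings). Both HET libraries were above both WT libraries for 9 of them and the reverse held for 1, against 23.5% and 24.5% of all genes. Interferon-stimulated genes had a median of 0.59 (1.68 with the Y-linked level as a covariate) and none of 16 had an unadjusted p under 0.05. Of the 16, 9 had both WT libraries above both HET libraries and 1 the reverse, against 24.5% and 23.5% of all genes.

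Lists for handling, the chromosome and the strain had medians near 0 over members of both signs. The 17 immediate early and heat shock genes had a median of -0.0044 over members from -2.78 to 0.62. Without overlap, 5 were higher in WT and 6 higher in HET, against 24.5% and 23.5% of all genes. At an unadjusted p under 0.05, Jund and Ier2, early response genes, were higher in WT and Hsph1, a heat shock chaperone, was lower. Over all genes these shares were 3.98% and 2.44%. Jund stood at 134 and 149.7 CPM in WT and 98.6 and 121 CPM in HET. Ier2 stood at 31.9 and 46.6 CPM in WT and 22.025 and 29.0 CPM in HET. Hsph1 stood at 91.0 and 79.1 CPM in WT and 133 and 135 CPM in HET. The 13 mitochondrially encoded genes had a median of 0.14, and 12 of them overlapped. Of the 41 genes tested within 5 Mb of Zbtb38 the median was -0.01. Pccb alone, a subunit of a mitochondrial carboxylase, had an unadjusted p under 0.05. It was higher in WT, as were 3.98% of all genes at that p. Pccb stood at 10.4 and 6.67 CPM in WT and 2.33 and 4.42 CPM in HET. Vav1, whose promoter drives the Cre, stood at 382 and 360 CPM in WT and 441 and 390 CPM in HET. Nnt, which carries a deletion in C57BL/6J, stood at 16.0 and 32.7 CPM in WT and 16.2 and 18.4 CPM in HET, so all 4 libraries held Nnt reads. A level summed over the gene does not show the deletion, and which allele was present was not tested.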

How the data were processed

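RNA-seq libraries (SMART-Seq v4, paired ends) came from sorted germinal center B cells. The authors quantified transcripts with Salmon (0.9.1 in the submitters' processing notes, which also name DESeq2 2.11.40.6), and the study's methods give Gencode vM17. The deposited files hold estimated counts and TPM for 64019 transcripts in each library, with 26612431 to 41059082 estimated counts per library. Averaged over libraries, 46.8% of the estimated counts were not whole numbers.

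Estimated counts were summed over the transcripts of each of 22380 gene identifiers and rounded to whole numbers. Genes were filtered with filterByExpr, scaled by TMM and tested with edgeR 4.0.16 in R 4.3.3 (quasi-likelihood test, 1 term per genotype over all 10 libraries, contrast WT minus HET, Benjamini-Hochberg adjusted p under 0.1). Standard errors were taken from the fold change and its F statistic. Alternatives used DESeq2 1.42.0 and limma 3.58.1 on log2(TPM + 1) and log2(TPM + 0.1), with these fold changes on the log2(TPM + pseudocount) scale, which understates those of low genes. The code was tested on simulated data. Positions for 22349 genes come from the Gencode vM21 annotation of GRCm38, a later release than that used for counting, and the printed coding start comes from the Gencode sequences of that build.

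Groups follow the genotype labels. Replicates are numbered in the labels, which do not say whether they are separate animals. The study gives the group sizes of WT (2) and KO (6) as mice. The p-values measure only the spread between these samples. The named genes are Zbtb38, genes that passed, the genes with the smallest p among those whose groups do not overlap until 12 stood in each direction, and list members by role. The members, lists and tests were chosen with earlier results of these data known. Sex, age and litter are not in the labels and were not used. Some single genes are not reported here.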

Additional observations from a re-analysis of the deposited data

Results flagged for a closer look

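In 3 of the named genes 1 KO library lay far from the other 5, past the 95% critical value of Dixon's test for 6 samples. Of 25 groups of 6 checked, 1.25 are expected to be flagged by chance. Gpm6b was at 4.387 CPM in the sixth KO library, and the median of the KO libraries was 1.30 CPM. Agbl1 was at 4.442 CPM in the fourth KO library, with a KO median of 1.54 CPM. Lpin2 was at 169 CPM in the second KO library, with a KO median of 136 CPM, and both HET libraries lay above it.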

How the results depend on the processing

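The count of genes that passed between WT and HET, 1 in the fit of all 10 libraries, was 523 with only the 4 WT and HET libraries, 123 with DESeq2, 5 with limma on log2(TPM + 0.1), 0 with at least 10 counts in every WT and HET library (659 at an unadjusted p under 0.05) and 0 with the Y-linked level as a covariate (1232). It lay between 0 and 16 when 1 library was left out, and was 0 without either WT library, either HET library or KO library 2, 3 or 4. The 16 were without KO library 6. The cause of these differences was not tested, beyond the fewer samples or genes that the settings hold. The filter of at least 10 counts removed Hnrnpll, which had 0 counts in HET, before testing. Its call was thus lost there by construction. With a replicate block the count of genes that passed was 66, and 481 with the replicate block and only 4 libraries. Replicate numbers 3 to 6 occur only in KO, so with all 10 libraries each of those KO libraries has a block term of its own. They then add nothing to the estimate of spread. Both block fits thus leave fewer residual degrees of freedom than the same fits without the block. Over the genes tested, deviations of the first WT and first HET library from their group means correlated at -0.0011. This single value, with 2 libraries in each group, cannot show whether the numbers pair the samples for some genes. The difference in Zbtb38 was above 0 in all 24 settings, between 0.20 and 0.58, and it passed at 0.50 both with only 4 libraries and with the replicate block in those 4. Hnrnpll missed the threshold under limma on log2(TPM + 1), with counts scaled by transcript length and with the Y-linked covariate, and its adjusted p ran from 6.41e-06 to 0.622. The 24 genes chosen by p keep their direction by construction when 1 WT or HET library is left out, since their groups do not overlap. The medians of the neutrophil, platelet, light zone, ZBTB38 pathway, immediate early and heat shock, mitochondrially encoded, line background (Vav1, Nnt and Commd10) and near-Zbtb38 lists changed sign in at least 1 setting. Genes at 0 in 1 group cannot be compared below the floor of 3 counts.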
